A study of Mus musculus with 10 samples.

Results

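The 35 genes described here are named components of the heat shock response (14 genes) and of the unfolded protein response (UPR) and its chaperones in the endoplasmic reticulum (ER; 21 genes), taken by symbol from a count table of 55453 genes. All 35 symbols were present. Of these, 34 entered the test, and *Hspb1* did not reach the minimum count of 10 reads that the filter asked for. The table holds RNA-seq read counts of microglia sorted as CD45int CD11b+ cells from the hippocampus of female 3xTg mice that were over 15 months of age. The 3xTg line is a model of Alzheimer's disease (AD) in which mutant human transgenes, *APP* and *MAPT* among them, are driven by the neuronal Thy1.2 promoter, and every mouse in both groups carried it. Per the labels, the GA group of 5 libraries received 0.1 mg glatiramer acetate (GA), a random peptide polymer used in multiple sclerosis, each week for about 8 weeks. The PBS group of 5 libraries received phosphate-buffered saline. The authors describe an additional injection of GA or PBS in the first week. GA was compared with PBS for each gene.

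Libraries are named here by their sample titles, 388_1 to 388_5 for PBS and 394_1, 394_2, 400_1, 400_2 and 400_3 for GA, and all values by library follow that order. The title prefix is 388 in all 5 PBS libraries, 394 in 2 GA libraries and 400 in 3 GA libraries. The labels do not say what the prefix marks, so prefix and treatment cannot be told apart. The labels also do not say whether each library came from a separate mouse, so *P*-values measure only the spread between these libraries. Depth was similar, with 32332185 to 38764643 counted reads per library, of which the 35 genes took 0.921% to 1.04%. Mitochondrial genes took 0.129% to 0.180%. The sum of 11 microglia markers lay between 54520 and 64640 normalised CPM, the counts scaled to the size of each library in all 10 libraries, and the B and T cell markers *Cd3e* and *Cd8a* and the endothelial marker *Cldn5* were at 0 reads in 6, 8 and 8 libraries. Other markers of the same lists were detected, with means of 22.0 CPM in PBS and 19.7 CPM in GA for *Cd79b* and of 30.3 and 28.9 CPM for *Pecam1*. *Itgam*, which encodes the sorted antigen CD11b, stood at 88.7 to 233 CPM in PBS, lowest in 388_4, and at 197 to 299 CPM in GA, and the groups overlapped.

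The heat shock response and the UPR are the systems by which cells adjust their capacity to fold proteins. In the cytosol, heat shock factor 1 (*Hsf1*) is held inactive by chaperones and, once these are occupied by misfolded proteins, binds heat shock elements and drives the genes of HSP70, HSP90, HSP110 and their J protein partners. In the ER, the sensors IRE1 (*Ern1*), PERK (*Eif2ak3*) and ATF6 are kept silent by the ER HSP70 *Hspa5*, also called BiP, and when released they act through spliced *Xbp1*, *Atf4* and cleaved ATF6 on ER chaperones, folding enzymes and the death-linked factor *Ddit3* (CHOP). Microglia take up aggregated proteins and secrete many others, and both systems are studied in AD because amyloid and tau accumulate as misfolded protein.

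The promoters of many such genes carry binding sequences through which the pathways act, and they are shown, on the strand of the gene from 5′ to 3′, for the genes to which the measurements below return. A promoter window here is the stretch from 250 bases before to 50 bases after a gene start in RefSeq on GRCm38.p6, and 28 of the 35 genes had such a window. *Hsf1*, *Hspa8*, *Hsp90aa1*, *Hsp90ab1*, *Hyou1*, *Manf* and *Atf6* had none in the table used. Both strands were searched for the heat shock element (HSE), read as GAA, TTC and GAA with 2 bases between neighbours, and for its core of GAA and TTC with 2 bases between, which every HSE match contains. For the ER genes, the ER stress response element (ERSE) was read as CCAAT and CCACG with 9 bases between, ERSE-II as ATTGG and CCACG with 1 base between, the UPR element as TGACGTGG, and the ATF4-bound element as TGATG and AAT with 1 base between. The HSE core was present in 8 of 10 heat shock genes and in 0 of 18 ER and UPR genes, and in 9.04% of all 27025 genes with a window. The full HSE was present in *Hsph1*, *Hspd1* and *Hspe1*, and in 0.662% of all genes. The ERSE was present in 7 of 18 ER and UPR genes (*Hspa5*, *Hsp90b1*, *Pdia6*, *Calr*, *Canx*, *Dnajc3* and *Creld2*), in 0 of 10 heat shock genes and in 0.137% of all genes. ERSE-II was found in *Herpud1* alone among these genes, and in 0.0444% of all genes. The UPR element and the ATF4-bound element were found in 0 of the 28 genes, and in 0.714% and 1.08% of all genes, which says only that these letters are not in these windows.

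**Figure D1:**
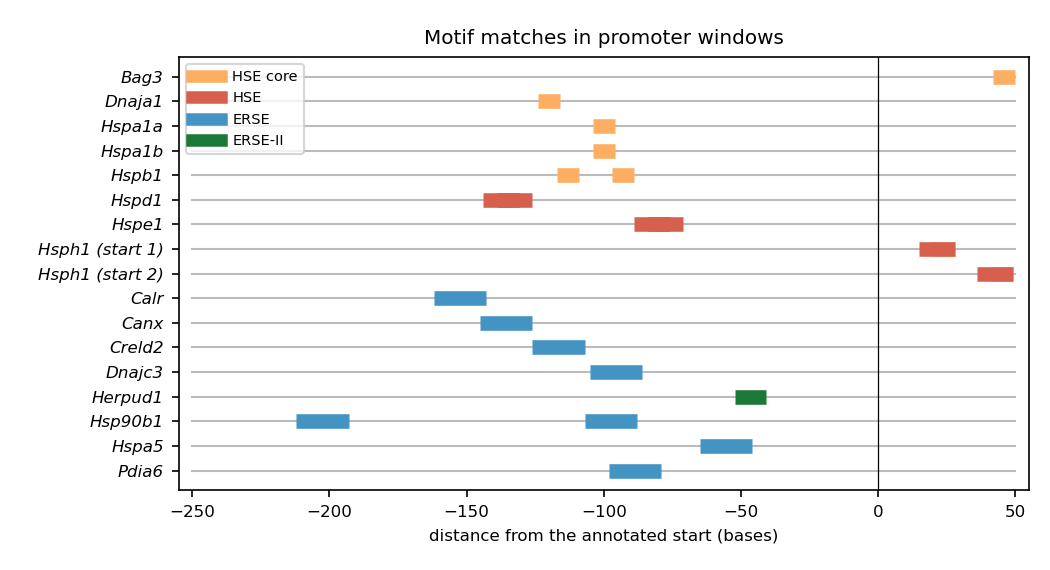
Positions of motif matches in the promoter windows, in bases from the RefSeq start (vertical line), for the genes with at least 1 match. Each grey line is a window and each coloured block a match on either strand. HSE core and HSE matches lie in heat shock genes only, and ERSE and ERSE-II matches in ER and UPR genes only.

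The heat shock genes *Hspa1a* and *Hspa1b* encode the same inducible HSP70, and the 250 bases before their starts are identical at 247 positions. The 250 bases before the start of *Hspa1a* (chr17:34972157-34972406, minus strand, GRCm38.p6) are printed with the HSE core in capitals.
Hspa1a: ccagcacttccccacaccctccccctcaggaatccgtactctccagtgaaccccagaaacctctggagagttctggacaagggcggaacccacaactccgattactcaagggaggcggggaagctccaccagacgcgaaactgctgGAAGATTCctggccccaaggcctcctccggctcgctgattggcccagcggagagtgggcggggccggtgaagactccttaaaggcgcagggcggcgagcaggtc

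The mitochondrial chaperonin genes *Hspd1* (HSP60) and *Hspe1* (HSP10) lie head to head on opposite strands. RefSeq gives *Hspd1* 2 starts, of which 1 lies 216 bases from the start of *Hspe1* and the other lies past it, and in GENCODE M21 the exons of the genes overlap by 112 bases. Between the *Hspe1* start and the first of these *Hspd1* starts, 1 stretch of 18 bases (chr1:55088059-55088076) holds 2 overlapping HSE matches. It is printed on the strand of *Hspe1*, together with the HSE of the HSP110 gene *Hsph1* (chr5:149636288-149636300, minus strand), since *Hsph1* is the heat shock gene with the smallest *P*-value below.
Hspe1 and Hspd1: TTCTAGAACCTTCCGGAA
Hsph1: TTCTGGAAAGTTC

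For the ER genes, the 250 bases before the RefSeq start are printed for *Hspa5* (chr2:34771840-34772089, plus strand), *Hsp90b1* (chr10:86705445-86705694, minus strand), *Calr* (chr8:84846932-84847181, minus strand) and *Creld2* (chr15:88819396-88819645, plus strand). The ERSE is in capitals, and where the match lies on the other strand the capitals begin with CGTGG. *Hsp90b1* holds 2 matches and the other genes hold 1 each.
Hspa5: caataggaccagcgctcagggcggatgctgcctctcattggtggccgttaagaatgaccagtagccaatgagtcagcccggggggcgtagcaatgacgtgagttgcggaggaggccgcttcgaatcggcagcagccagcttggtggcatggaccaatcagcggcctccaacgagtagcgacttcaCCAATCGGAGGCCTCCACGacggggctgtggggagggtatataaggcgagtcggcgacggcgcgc
Hsp90b1: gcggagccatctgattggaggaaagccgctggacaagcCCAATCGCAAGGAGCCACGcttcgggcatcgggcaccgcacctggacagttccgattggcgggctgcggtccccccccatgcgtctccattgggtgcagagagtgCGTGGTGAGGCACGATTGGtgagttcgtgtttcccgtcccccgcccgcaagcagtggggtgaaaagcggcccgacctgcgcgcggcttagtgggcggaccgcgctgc
Calr: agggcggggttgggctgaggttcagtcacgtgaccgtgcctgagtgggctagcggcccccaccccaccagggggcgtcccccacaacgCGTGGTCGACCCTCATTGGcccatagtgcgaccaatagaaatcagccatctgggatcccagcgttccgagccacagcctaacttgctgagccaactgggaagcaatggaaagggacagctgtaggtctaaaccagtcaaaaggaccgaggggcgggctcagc
Creld2: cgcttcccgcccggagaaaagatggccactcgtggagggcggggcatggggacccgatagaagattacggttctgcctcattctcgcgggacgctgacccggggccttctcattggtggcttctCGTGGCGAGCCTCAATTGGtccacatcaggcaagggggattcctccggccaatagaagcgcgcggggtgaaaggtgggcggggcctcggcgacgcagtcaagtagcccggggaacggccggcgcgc

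The most abundant of the 35 genes in these microglia were ER chaperones and folding enzymes, and the inducible HSP70 genes were among the least abundant. Levels between genes were compared as mean PBS CPM per kilobase of merged exons in GENCODE M21. On that scale the highest of the 35 were the disulphide isomerase *Pdia3* (411), *Hspa5* (349), the lectin chaperone calreticulin *Calr* (315) and the ER HSP90 *Hsp90b1*, also called GRP94 (231). The most abundant cytosolic chaperones were the HSP90 gene *Hsp90ab1* (168) and the constitutive HSP70 gene *Hspa8* (123), at ranks 7 and 10 of the 35. The lists overlapped in level, since the HSP70 cofactors *Bag3* (24.5) and *Dnajb1* (20.1) stood above the ER chaperones *Dnajb9* (17.5) and *Hyou1* (7.65). At the low end were the PERK arm target *Trib3* (0.550), *Hspa1b* (0.526), *Hspa1a* (0.147) and the small heat shock protein *Hspb1* (0.0593). Among the UPR regulators, *Xbp1* stood at 113, *Atf4* at 36.4, PERK at 14.7, *Ddit3* at 14.6, *Atf6* at 12.03 and *Ern1* at 3.74 CPM per kilobase. In bulk samples, a lower level from fewer cells of a type and from less RNA per cell cannot be told apart.

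**Figure D2:**
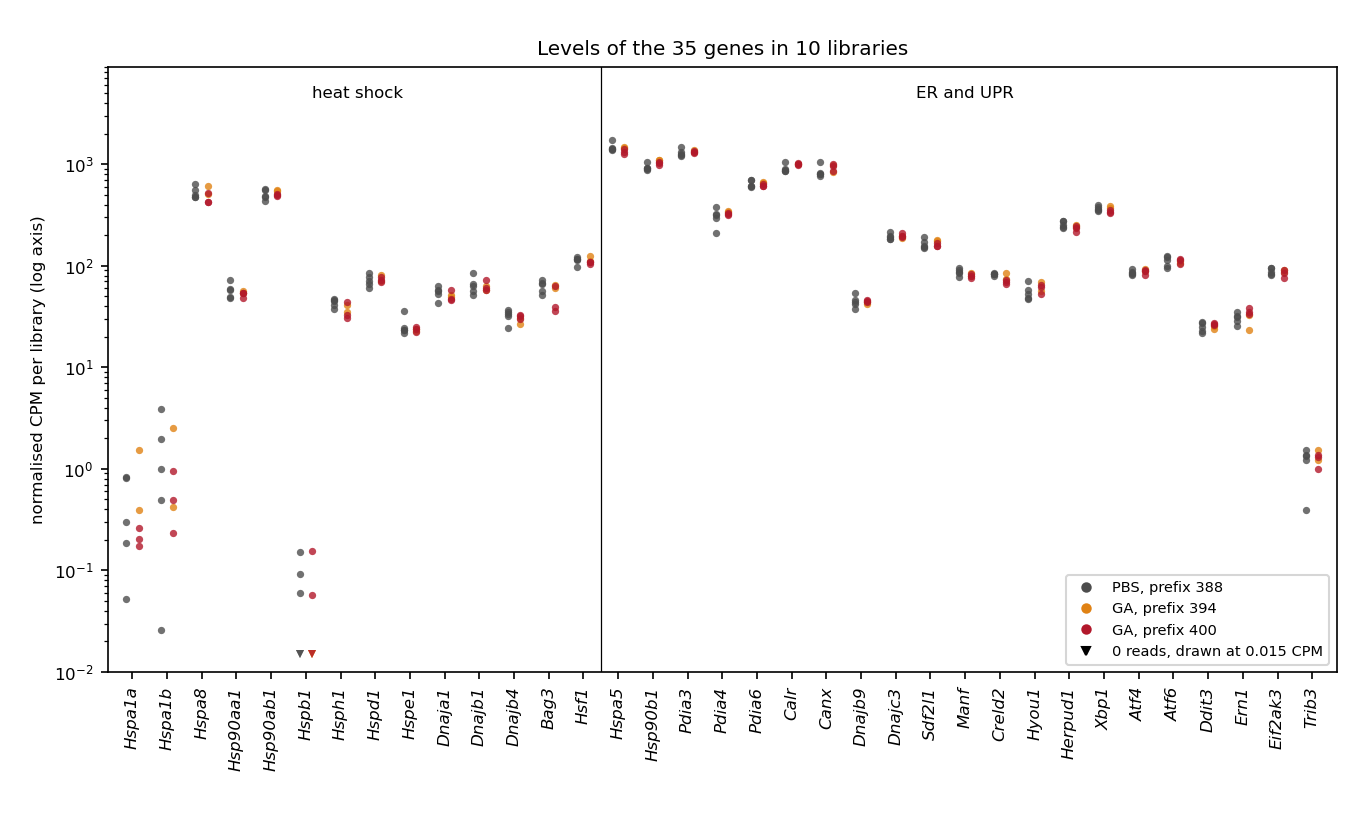
Normalised CPM of each of the 35 genes in each library, on a log axis, with PBS libraries (prefix 388) in grey on the left and GA libraries (prefix 394 orange, prefix 400 red) on the right of each gene. ER chaperones such as *Hspa5* lie above most other genes, *Hspa1a* and *Hspa1b* spread widely within each group, and *Hspb1* is at 0 reads in some libraries of each group (triangles).

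None of the 34 tested genes was called between GA and PBS. In edgeR's quasi-likelihood test, 0 of the 34 had an adjusted *P* under 0.05 (range 0.847 to 0.997), and 0 of all 14481 tested genes did (0%). DESeq2 called 2 of all genes, *Dcstamp* and *Gm1070*, neither among the 34, and limma-voom called 0. At an unadjusted *P* under 0.05 stood 4 of the 34, against 833 of all tested genes (5.75%). Of the 4, 2 were higher in GA and 2 lower, against 2.58% and 3.17% of all tested genes. In 0 of the 34 did the libraries of the groups fail to overlap, against 0.891% of all genes tested. The signs were mixed, with 15 genes higher and 19 lower in GA, and 50.1% of all tested genes were higher. Among 13 heat shock genes 3 were higher and 10 lower with a median log2 fold change of -0.09, and among 21 ER and UPR genes 12 were higher and 9 lower with a median of 0.03. The median over all tested genes was 0.0002.

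Taken for a single gene and with libraries treated as independent, the intervals limit how large a difference these data leave room for. They were not adjusted for the number of genes, so they do not hold jointly at 95%. For the 31 tested genes other than *Hspa1a*, *Hspa1b* and *Trib3*, each with at least 764 reads in every library, fold changes from PBS to GA were between -0.25 and 0.17 on the log2 scale, and every 95% interval lay between 0.664-fold and 1.30-fold. In 27 of these 31 the interval included no change. For the 3 genes with few reads, the intervals were far wider.

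**Figure D3:**
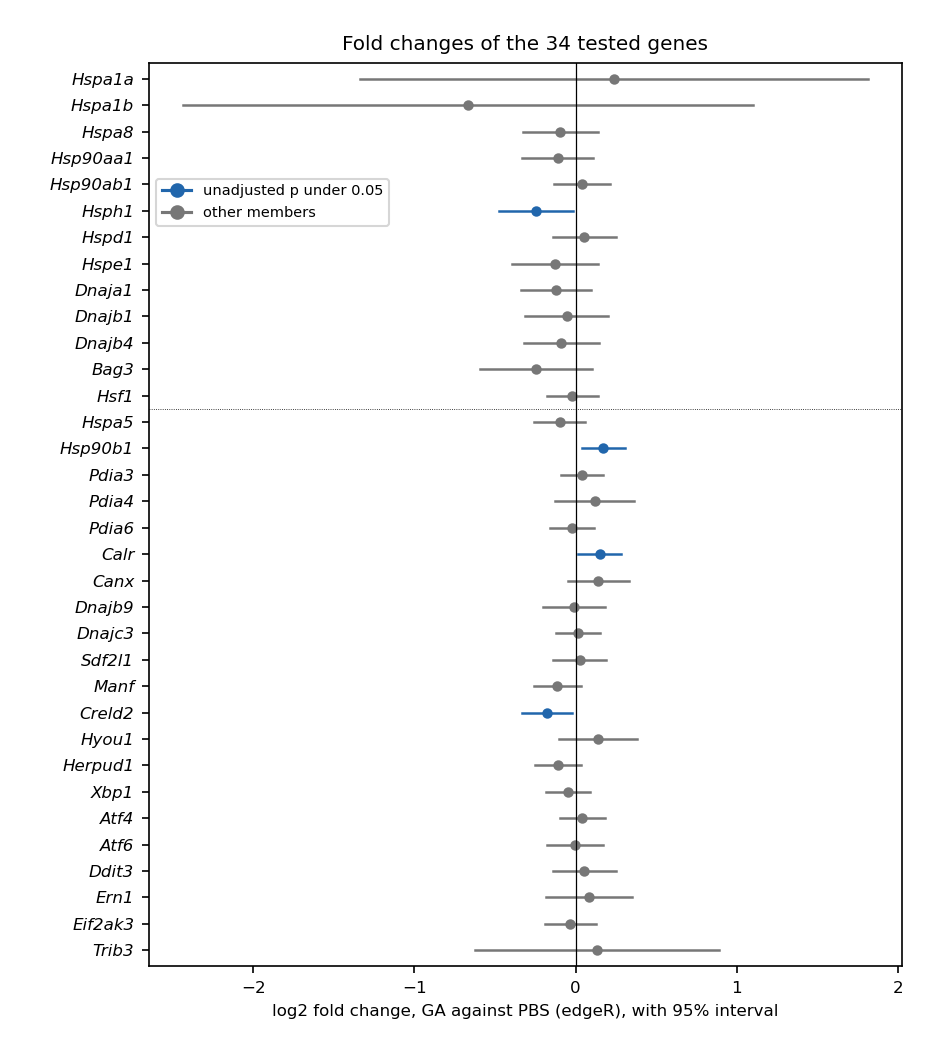
Log2 fold change of GA against PBS with its 95% interval for the 34 tested genes, heat shock genes above the dotted line and ER and UPR genes below. Blue marks the 4 genes with an unadjusted *P* under 0.05 (*Hsph1*, *Hsp90b1*, *Calr* and *Creld2*), none of which passed after adjustment, and the intervals of *Hspa1a*, *Hspa1b* and *Trib3* are the widest.

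The inducible HSP70 genes *Hspa1a* and *Hspa1b*, which are nearly silent in unstressed cells and are the classic readout of a heat shock response, were at low levels in every library. *Hspa1a* (chr17:34969190-34972156) was counted at 0.0523, 0.299, 0.825, 0.186 and 0.822 CPM in the PBS libraries and at 0.390, 1.54, 0.173, 0.262 and 0.206 CPM in the GA libraries, from 2 to 55 reads. *Hspa1b* (chr17:34956436-34959238) was counted at 0.0262, 0.986, 3.91, 0.496 and 1.96 CPM in PBS and at 0.420, 2.53, 0.953, 0.498 and 0.232 CPM in GA, from 1 to 128 reads. The same libraries were high for both genes, 388_3 and 388_5 in PBS and 394_2 in GA, the same library 388_1 was lowest for both, and the groups overlapped. The log2 fold change was 0.24 with a standard error (SE) of 0.74 for *Hspa1a* (unadjusted *P* = 0.752) and -0.67 with an SE of 0.82 for *Hspa1b* (unadjusted *P* = 0.431) in edgeR. The intervals ran from 0.395-fold to 3.52-fold and from 0.185-fold to 2.14-fold, so a change of moderate size was not detectable given the spread between these libraries. Leaving out GA library 394_2 turned *Hspa1a* to -0.75, and leaving out PBS library 388_3 turned *Hspa1b* to 0.10. The transcripts share 48.6% and 49.9% of their 100-base stretches with another gene, chiefly with each other, and *Hspa1a* overlaps the opposite-strand gene *Gm20481* by 564 exon bases, so counts of these genes are uncertain where reads could be split.

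Across the 10 libraries, *Hspa1a* and *Hspa1b* varied together with a Pearson *r* of 0.863 (permutation *P* = 0.00145, adjusted over 8 relations 0.0116) and a Spearman rho of 0.758 (permutation *P* = 0.0152, adjusted 0.0788). Without the libraries 388_1 and 394_2, which lay farthest from the median of *Hspa1a*, *r* was 0.782, and for deviations from the group means it was 0.875. The part of the shared sequence in this relation was not tested. *Hspa1a* also varied with *Hspa8*, with *r* = 0.762 (permutation *P* = 0.0109, adjusted 0.0435), rho = 0.733 (permutation *P* = 0.0197, adjusted 0.0788), *r* = 0.780 without the same libraries and 0.813 within groups. For *Hspa1a* with *Dnajb1*, *Hspa5* and the immediate early gene *Fos*, *r* was 0.452, 0.503 and 0.351, with adjusted permutation *P* of 0.301, 0.278 and 0.427. *Atf4* and its target *Trib3* gave *r* = 0.223 (adjusted permutation *P* = 0.657).

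The constitutive HSP70 gene *Hspa8*, which folds nascent proteins and uncoats vesicles, was counted at 476, 479, 555, 492.6 and 640 CPM in PBS and at 507, 605, 425, 420 and 518 CPM in GA. The highest library was 388_5 and the lowest pair was 400_1 and 400_2, and the groups overlapped. Its log2 fold change was -0.09 (SE 0.11, unadjusted *P* = 0.395). The mean was 556 CPM for prefix 394 and 454 CPM for prefix 400, and their libraries overlapped, with 394_1 below 400_3. *Hspa8* shares 28.2% of its 100-base stretches with pseudogenes.

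*Hsph1* encodes HSP110, the nucleotide exchange factor that resets HSP70, and it had the smallest unadjusted *P* of the heat shock genes. *Hsph1* (chr5:149614287-149636376) was counted at 37.1, 45.3, 40.9, 46.0 and 46.7 CPM in PBS and at 34.6, 40.8, 32.6, 30.8 and 43.5 CPM in GA. GA libraries 394_1, 400_1 and 400_2 lay below every PBS library, and 394_2 and 400_3 lay within the PBS range. Group means were 43.2 ± 4.08 CPM in PBS and 36.4 ± 5.43 CPM in GA (SD, n = 5 each). The log2 fold change of -0.25 (SE 0.11) had an unadjusted *P* of 0.0378 and an adjusted *P* of 0.854 in edgeR, and the exact two-sided permutation test gave *P* = 0.0635. The unadjusted *P* ran from 0.0105 to 0.111 when single libraries were left out.

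For the cytosolic HSP90 gene *Hsp90aa1*, the stress-inducible form, counts were 48.6, 49.0, 58.7, 72.0 and 58.3 CPM in PBS and 54.3, 56.0, 53.4, 48.0 and 53.6 CPM in GA. PBS library 388_4 was the highest and all GA libraries lay inside or just below the PBS range. The log2 fold change was -0.11 (SE 0.10, unadjusted *P* = 0.300), and 38.0% of its 100-base stretches are shared with pseudogenes. The constitutive form *Hsp90ab1* ranged from 429 to 574 CPM in PBS and from 481 to 554 CPM in GA, with a log2 fold change of 0.04 (SE 0.08).

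The J protein *Dnajb1*, which hands clients to HSP70 and is a target of HSF1, was counted at 51.1, 62.8, 66.8, 56.4 and 85.0 CPM in PBS and at 62.8, 57.4, 57.4, 60.5 and 72.1 CPM in GA. Library 388_5 was again the highest, library 388_1 was the lowest, and every GA library lay between them. In edgeR, *Dnajb1* had a log2 fold change of -0.05 (SE 0.12, unadjusted *P* = 0.661). The J proteins *Dnaja1* and *Dnajb4* were also lower by sign, at -0.12 and -0.09, with unadjusted *P* of 0.247 and 0.437.

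*Bag3*, the cochaperone that routes HSP70 clients to autophagy, ranged from 51.1 to 72.4 CPM in PBS and from 36.1 to 65.3 CPM in GA. GA libraries 400_1 and 400_2 lay below every PBS library, and the mean was 63.1 CPM for prefix 394 and 46.1 CPM for prefix 400. Its log2 fold change of -0.25 (SE 0.16, unadjusted *P* = 0.150) became 0.02 with prefix 394 alone. *Hspd1* and *Hspe1*, whose products form the mitochondrial folding chamber and which share the HSE shown above, had log2 fold changes of 0.05 and -0.13 (unadjusted *P* = 0.564 and 0.326). *Hspe1* stood at 35.6 CPM in PBS library 388_4 and between 21.9 and 24.9 CPM in the other 9 libraries. Without that library its log2 fold change was 0.02. The factor *Hsf1* itself ranged from 96.6 to 123 CPM over the 10 libraries, with a log2 fold change of -0.02 (SE 0.07). *Hspb1* was at 0 reads in 5 libraries and at 2 to 6 reads in the others, too few to test.

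In the ER lumen, the HSP90 chaperone *Hsp90b1* (GRP94), which matures receptors such as the Toll-like receptors and integrins, had the smallest *P*-value of all 34 genes. *Hsp90b1* (chr10:86690209-86705509) was counted at 924, 908, 903, 876 and 1048 CPM in PBS and at 1101, 1098, 1046, 1028 and 979.5 CPM in GA. The GA libraries 394_1 and 394_2 lay above every PBS library, and the other 3 lay above 4 PBS libraries but not above 388_5. Group means were 932 ± 67.0 CPM in PBS and 1051 ± 51.0 CPM in GA (SD, n = 5 each), and the log2 fold change was 0.17 (SE 0.06). The unadjusted *P* was 0.0141 and the adjusted *P* 0.847 in edgeR, and the exact two-sided permutation test gave *P* = 0.0317. Its unadjusted *P* stayed between 0.000729 and 0.0387 when single libraries were left out, and its log2 fold change between 0.15 and 0.22. *Hsp90b1* has 4032 exon bases. Its exon overlaps with *Gm15344* and *Gm25745* on the same strand and *1810014B01Rik* on the other add up to 632 bases, so its counts are uncertain where reads could be split. The same holds for *Hspa8*, *Dnaja1*, *Manf*, *Ddit3* and *Eif2ak3*, whose overlaps with other gene models add up to 262, 931, 326, 186 and 485 exon bases. In these sums a base covered by more than 1 other model is counted for each.

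The lectin chaperone *Calr*, which with *Canx* retains glycoproteins in the ER until they are folded, had a like pattern. *Calr* (chr8:84841850-84846934) was counted at 901, 860.3, 863, 867 and 1049 CPM in PBS and at 1005, 1005, 1032, 1010 and 989 CPM in GA. All 5 GA libraries lay above 4 of the PBS libraries and below 388_5. Group means were 908 ± 80.7 CPM in PBS and 1008 ± 15.3 CPM in GA (SD, n = 5 each). The log2 fold change of 0.15 (SE 0.06) had an unadjusted *P* of 0.0302 and an adjusted *P* of 0.854 in edgeR, and *P* = 0.0476 in the exact permutation test. The membrane-bound partner *Canx* had a log2 fold change of 0.14 (SE 0.09, unadjusted *P* = 0.134), and its PBS libraries lay between 758 and 811 CPM except for 388_5 at 1054 CPM. When single libraries were left out, the unadjusted *P* ran from 0.000326 to 0.0739 for *Calr* and from 0.00256 to 0.266 for *Canx*, lowest for both without 388_5. For *Calr* it was not under 0.05 without 388_1, 388_2, 388_3, 388_4 or 400_1. Without 388_5, the smallest adjusted *P* of any of the 34 genes was 0.533, and over all settings it was 0.483, for *Creld2* without 394_2.

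*Hspa5*, the ER HSP70 that holds the UPR sensors inactive and the standard readout of ER stress, was counted at 1409, 1390, 1436, 1407 and 1746 CPM in PBS and at 1478, 1454, 1312, 1260 and 1399 CPM in GA. Library 388_5 stood apart from the other PBS libraries, and the GA libraries of prefix 394 lay above the remaining 4 PBS libraries while 400_1 and 400_2 lay below them. GA differed from PBS by -0.10 on the log2 scale (SE 0.07, unadjusted *P* = 0.201), and by -0.03 without 388_5. The ER HSP110 *Hyou1* ranged from 47.5 to 70.8 CPM in PBS and from 53.2 to 69.6 CPM in GA, with a log2 fold change of 0.14 (SE 0.11). *Hspa5* and *Hsp90b1*, which are textbook co-regulated targets of ATF6, had *r* = 0.183 over the 10 libraries (adjusted permutation *P* = 0.657) and *r* = 0.804 for deviations from the group means. Between *Hspa5* and *Sdf2l1*, *r* was 0.592 (adjusted permutation *P* = 0.166).

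The disulphide isomerases, which form and rearrange disulphide bonds, had log2 fold changes of 0.04 (*Pdia3*), 0.12 (*Pdia4*) and -0.02 (*Pdia6*), with unadjusted *P* of 0.514, 0.322 and 0.761. *Pdia4* stood at 212 CPM in PBS library 388_4 and at 295 to 382 CPM in the other PBS libraries, and without 388_4 its log2 fold change was 0.01. *Sdf2l1*, a cofactor of the ER J proteins and a sensitive UPR target, was counted at 153, 155, 148.5, 172 and 191 CPM in PBS and at 174, 178, 158, 168 and 158 CPM in GA. Every GA library lay inside the PBS range, and the log2 fold change was 0.03 (SE 0.08, unadjusted *P* = 0.729). The J proteins *Dnajb9* and *Dnajc3* were at -0.01 and 0.01.

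The 3 ER-resident or secreted UPR targets *Creld2*, *Manf* and *Herpud1* were all lower by sign. *Creld2*, a disulphide-handling ER protein (chr15:88819646-88826683), was counted at 82.6, 79.4, 83.5, 82.5 and 84.7 CPM in PBS and at 73.9, 84.0, 69.2, 65.3 and 72.8 CPM in GA. The PBS libraries lay close together, 4 GA libraries lay below every one of them and 394_2 lay within their range. Group means were 82.5 ± 1.98 CPM in PBS and 73.0 ± 6.998 CPM in GA (SD, n = 5 each). The log2 fold change of -0.18 (SE 0.07) had an unadjusted *P* of 0.0279 and an adjusted *P* of 0.854 in edgeR, and *P* = 0.0397 in the exact permutation test. Its unadjusted *P* ran from 0.00411 to 0.0950 when single libraries were left out, and it was not under 0.05 without 400_1, 400_2 or 400_3. For *Manf*, a secreted factor that protects stressed cells, and *Herpud1*, which acts in ER-associated degradation, the log2 fold changes were -0.11 and -0.11, with exact permutation *P* of 0.0714 and 0.127.

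The 7 genes with an ERSE did not share a sign. Their log2 fold changes were -0.10 for *Hspa5*, 0.17 for *Hsp90b1*, -0.02 for *Pdia6*, 0.15 for *Calr*, 0.14 for *Canx*, 0.01 for *Dnajc3* and -0.18 for *Creld2*. The 2 genes with the largest difference between them, *Hsp90b1* and *Creld2*, both carry this element in the bases printed above.

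The regulators of the UPR lay within the spread of the libraries. *Xbp1*, whose spliced form is the output of IRE1, was counted at 342, 364, 377, 355 and 395 CPM in PBS and at 367, 390.3, 333, 335 and 350 CPM in GA. GA libraries 400_1 and 400_2 lay below every PBS library, and the log2 fold change was -0.05 (SE 0.06, unadjusted *P* = 0.483). Gene counts add up the spliced and unspliced forms, so splicing by IRE1 was not measured.

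*Atf4*, which PERK activates mainly by translation, stood at 85.5, 85.9, 81.0, 93.2 and 83.3 CPM in PBS and at 88.4, 93.8, 87.9, 80.7 and 90.7 CPM in GA. The lowest and the highest of the 10 libraries, 400_2 and 394_2, were both GA libraries, and the log2 fold change was 0.04 (SE 0.07, unadjusted *P* = 0.530). *Ddit3*, the CHOP gene induced by ATF4 under lasting ER stress, stood at 23.0, 27.9, 27.2, 25.2 and 21.7 CPM in PBS and at 24.0, 25.5, 26.6, 26.2 and 27.1 CPM in GA. All GA libraries of *Ddit3* lay inside the PBS range, and the log2 fold change was 0.05 (SE 0.09, unadjusted *P* = 0.571). *Trib3*, a pseudokinase induced by both factors, stood at 1.52, 1.22, 1.37, 1.33 and 0.397 CPM in PBS and at 1.23, 1.52, 1.30, 1.36 and 1.003 CPM in GA. Every library but that of 0.397 CPM lay between 1.003 and 1.52 CPM in both groups. The low value came from 14 reads in 388_5, the library that was highest for most ER chaperones, and without it the log2 fold change of 0.13 (SE 0.35, unadjusted *P* = 0.713) became -0.08. The sensors *Atf6*, *Ern1* and *Eif2ak3* had log2 fold changes of -0.004, 0.08 and -0.03 (unadjusted *P* = 0.960, 0.520 and 0.681).

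The genes varied among libraries of the same group. The highest level over the 10 libraries was at most 2 times the lowest for 10 of 13 heat shock genes and 20 of 21 ER and UPR genes. PBS library 388_5 was the highest of the 10 for 20 of the 34 genes, 7 heat shock and 13 ER and UPR genes, and PBS library 388_1 was the lowest for 8, of which 6 were heat shock genes. The mean log2 CPM of the 13 heat shock genes was 5.25 ± 0.33 (SD, n = 5) in PBS and 5.17 ± 0.20 (SD, n = 5) in GA, a difference of -0.08. Library 388_1 was lowest at 4.74, and 388_5, 388_3 and 394_2 were highest at 5.53, 5.53 and 5.50. Without *Hspa1a* and *Hspa1b*, the SD was 0.14 in PBS and 0.11 in GA, and the difference was -0.09. The mean of the 21 ER and UPR genes was 7.28 ± 0.05 in PBS and 7.31 ± 0.04 in GA (SD, n = 5 each), a difference of 0.03. For both lists the SD within each group was larger than the difference between the groups. No test was run on these means, because the genes were chosen as a list.

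**Figure D4:**
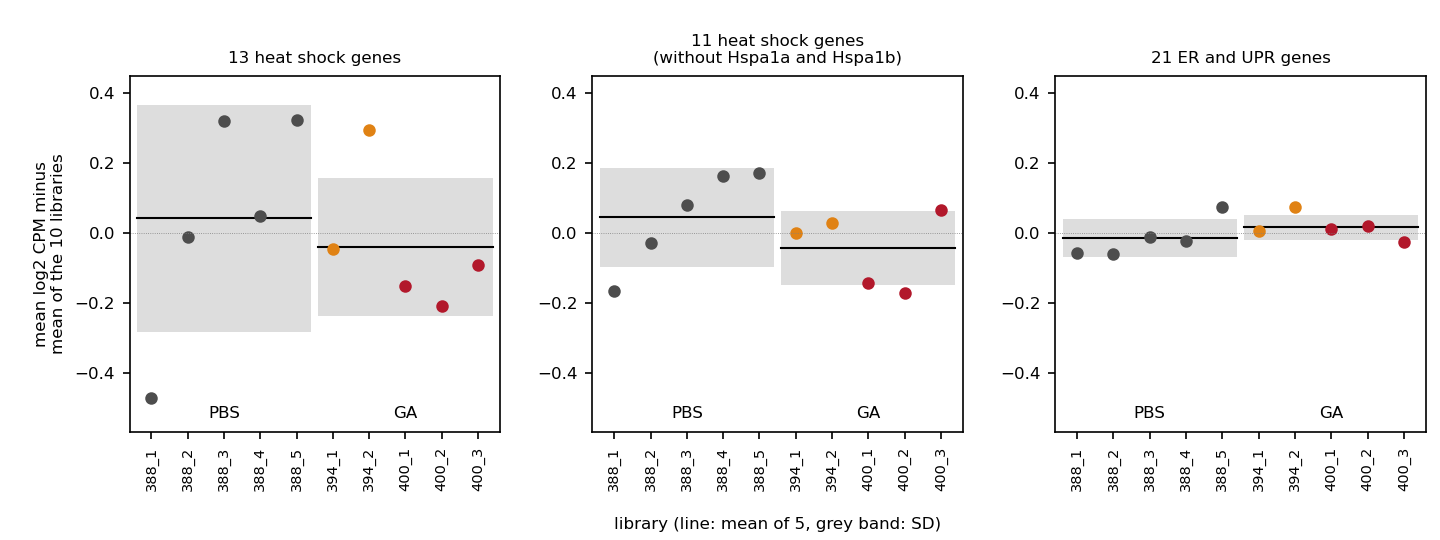
Mean log2 CPM of the heat shock genes, of the heat shock genes without *Hspa1a* and *Hspa1b*, and of the ER and UPR genes in each library, minus the mean of the 10 libraries, with PBS in grey, GA prefix 394 in orange and GA prefix 400 in red. Lines are group means of 5 libraries and bands their SD. The groups overlap in all 3 panels, and the ER and UPR mean varies least.

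The heat shock mean was 5.33 for GA prefix 394 and 5.06 for prefix 400, on either side of the PBS mean of 5.25, but of the prefix 394 libraries 394_2 at 5.50 lay above the PBS mean and 394_1 at 5.16 below it. Without *Hspa1a* and *Hspa1b* both prefixes lay below the PBS mean of 6.33, at 6.298 for prefix 394 and 6.2005 for prefix 400. The ER and UPR mean was 7.33 for prefix 394 and 7.29 for prefix 400, against 7.28 in PBS. The difference between the prefixes was not tested.

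**Figure D5:**
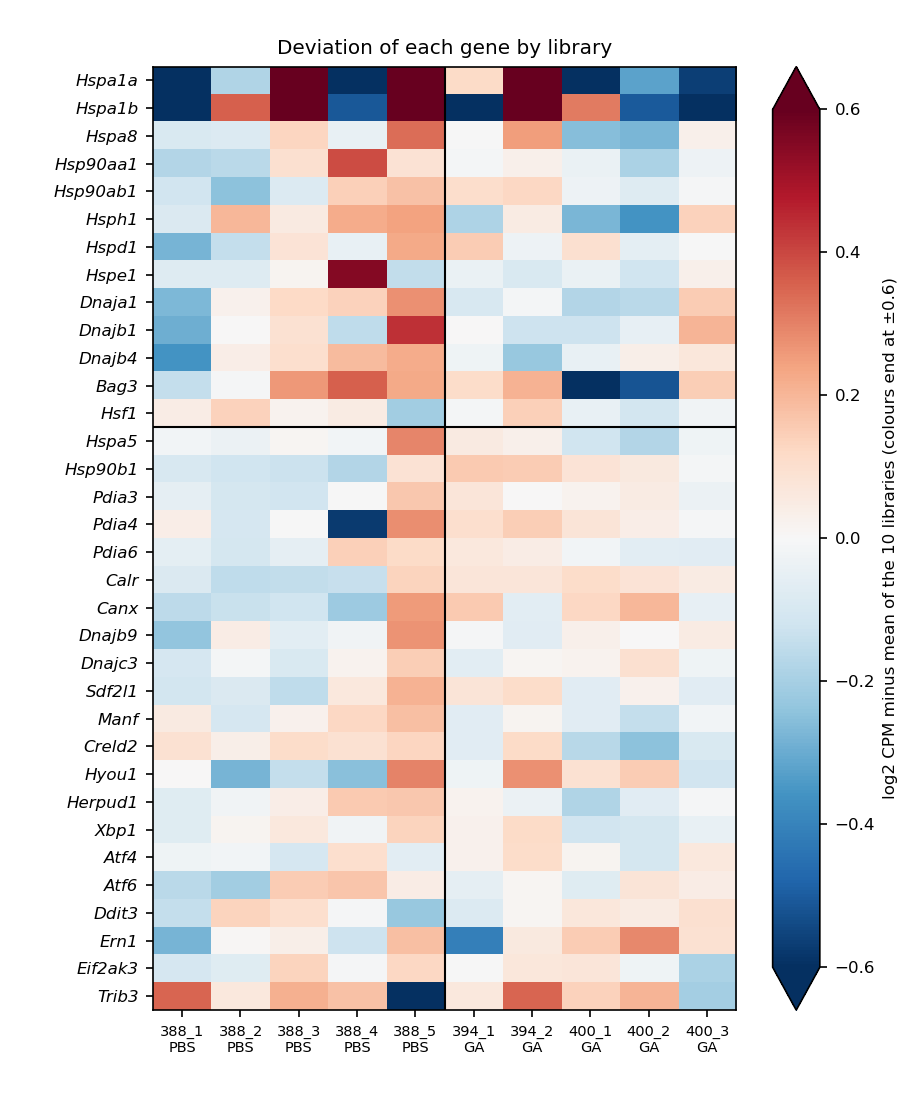
Deviation of each tested gene in each library from its mean over the 10 libraries, in log2 CPM, with colours ending at 0.6 in either direction. PBS library 388_5 is red across most rows, PBS library 388_1 is blue across many of the heat shock rows, and no block of genes separates GA from PBS.

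Other genes of the same pathways were read from lists of 52 further heat shock and cytosolic chaperone genes and 50 further ER stress and UPR genes. Of 49 tested heat shock genes, 0 passed after adjustment, 23 were higher and 26 lower, and the median log2 fold change was -0.01. *Hspa12a*, a distant HSP70 relative, was at 0.46 (SE 0.16, unadjusted *P* = 0.0124) and *Zfand2a*, a stress-inducible proteasome adaptor, at 0.26 (SE 0.10, unadjusted *P* = 0.0188). Of 47 tested ER stress and UPR genes, 0 passed after adjustment, 24 were higher and 23 lower, and the median was 0.001. The groups did not overlap for 1 of these 47 genes, against 0.891% of all tested genes. This was *Eif2s1*, the translation factor subunit that PERK phosphorylates, at 56.5 to 63.16 CPM in PBS and at 63.21 to 70.5 CPM in GA, so its groups nearly touched (log2 fold change 0.15, SE 0.06, unadjusted *P* = 0.0332, adjusted *P* = 0.854 in edgeR). *Ppp1r15a* (GADD34), which reverses that phosphorylation, was at -0.42 (SE 0.17, unadjusted *P* = 0.0315), with 2 PBS libraries, 388_1 and 388_4, at 45.9 and 50.9 CPM and the other 8 libraries between 22.8 and 29.2 CPM. *Mbtps2*, a protease that cleaves ATF6, was at -0.23 (unadjusted *P* = 0.0448) and *Creb3l2*, an ER-bound transcription factor, at -0.18 (unadjusted *P* = 0.0423). The further heat shock genes *Hspb8* and the ER stress genes *Stc2* and *Vldlr* were at 0 reads in all 10 libraries.

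Markers of neutrophils, blood cells outside the intended sort, differed in level between libraries. The summed level of 11 neutrophil markers was 43.9 to 468 CPM in PBS, with a median of 299, and 17.5 to 181 CPM in GA, with a median of 44.6. All 9 tested neutrophil markers were lower in GA by sign, 7 at an unadjusted *P* under 0.05 in edgeR and 0 after adjustment. Over all tested genes, 3.17% were lower at that unadjusted threshold. *Elane* and *Mpo*, markers of immature neutrophils, were at 0 reads in 7 libraries each. The 4 libraries with the highest heat shock mean, 388_5, 388_3, 394_2 and 388_4, were the 4 with the highest neutrophil sum, while 388_1, lowest of the 10 for the heat shock mean, was at rank 5 for the neutrophil sum. Without *Hspa1a* and *Hspa1b* 3 of the 4 were shared, and for the ER and UPR mean 2 of the 4. The part of these cells in the heat shock values was not tested.

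The sums of the other marker lists also overlapped between the groups. Immediate early genes, which respond within minutes to handling of cells, summed to 1379 to 1981 CPM in PBS and 1336 to 1992 CPM in GA, and 3 of the 4 libraries with the highest sum were among the 4 with the highest heat shock mean, while 388_5, the highest for the heat shock mean, was at rank 8 for this sum. Monocyte markers summed to 34.2 to 90.9 CPM in PBS and 36.6 to 51.2 CPM in GA. All 6 tested were lower in GA by sign, 3 at an unadjusted *P* under 0.05 in edgeR and 0 after adjustment. Over all tested genes, 3.17% were lower at that unadjusted threshold. *Ly6c2* and *Chil3* were among the 3, at an unadjusted *P* of 0.00589 and 0.0170. Another listed marker, *Ccr2*, had means of 31.3 CPM in PBS and 29.15 CPM in GA. The 4 libraries with the highest monocyte sum, 388_4, 388_3, 388_5 and 394_2, were the 4 with the highest heat shock mean. Library 388_1, lowest for the heat shock mean, was at rank 5 for the monocyte sum. The same 4 libraries had the most *Chil3*, with 388_3, 388_4, 388_5 and 394_2 at 32.3, 30.1, 21.7 and 10.8 CPM. For *Ly6c2* 388_3, 388_4 and 388_5 were the highest at 1.31, 1.115 and 0.964 CPM. Border macrophage markers summed to 49.9 to 248 and 48.9 to 192 CPM, astrocyte markers to 247.5 to 306 and 251 to 354 CPM, and oligodendrocyte markers to 180.5 to 210 and 175 to 218 CPM. Neuron markers summed to 2.35 to 4.46 and 1.59 to 3.61 CPM, B and T cell markers to 16.6 to 27.5 and 16.8 to 26.2 CPM, and endothelial and mural markers to 38.7 to 54.6 and 37.0 to 52.2 CPM. Their part in the values of the 35 genes was not tested.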

How the data were processed

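Libraries were made by the authors from 1 ng total RNA per sample of sorted microglia with SMARTer v4 amplification and Nextera XT. Per the labels, the submitters' processing notes name bcl2fastq 2.19.0, fastp 0.20.0, STAR 2.7.0f, Subread 1.6.4, featureCounts, DESeq2 and the build GRCm38.p6. Settings, annotation release and strandedness are not given in the sources used here. The authors deposited 1 table of raw counts per gene for 10 libraries, with no normalization. Column names matched the sample titles.

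Counts were tested with edgeR 4.0.16 in R 4.3.3 (filterByExpr with a minimum count of 10, TMM scaling, quasi-likelihood *F*-test of GA against PBS on all 10 libraries, no covariate, Benjamini-Hochberg adjustment over 14481 genes, calls at adjusted *P* under 0.05). CPM used TMM library sizes, and log2 CPM a pseudocount of 0.1 CPM. Single genes were also tested by exact two-sided permutation over libraries, whose smallest possible *P* is 0.00794. Relations over 10 libraries used 100000 resamples. Total counts were 32332185 to 38764643 per library, and every pair of libraries differed by more than sampling noise (chi-square per degree of freedom at least 13.0). On simulated counts with 200 genes changed by a log2 fold of 1, the test recovered 70.5% of them and also called 8 unchanged genes, and on counts with no gene changed it made 0 calls.

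Gene positions, exon overlaps and shared 100-base stretches came from GENCODE M21, promoter sequences from RefSeq (both GRCm38.p6). Values by library are given for 12 genes fixed by name and for any of the 35 with an unadjusted *P* under 0.05 or groups that did not overlap, and other genes of the 35 by ranges. Genes outside the 35 are named from fixed lists where their unadjusted *P* was under 0.05, where they mark a cell type or where a result turned on them. *Bag3*, *Hspe1*, *Canx*, *Pdia4*, *Dcstamp*, *Gm1070* and *Gm15920* were singled out, and zero-count genes of the lists named, after their values were seen. The genes and lists were chosen with earlier results of these data known. Alternatives were DESeq2 1.42.0, limma-voom (limma 3.58.1), other scaling, other filters, leaving out each library, and each GA prefix alone. Some marker results are not reported here.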

Additional observations from a re-analysis of the deposited data

Results flagged for a closer look

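In each group of 5 libraries, the gap between the extreme library and its nearest neighbour was set against the range of the group, and 6 of 76 such tests (7.89%) passed Dixon's critical value of 0.710, where chance alone passes about 1 in 20 groups. Of these, 4 concerned PBS library 388_5. *Hspa5* at 1746 CPM was the highest PBS value with a gap of 0.857 of the range, *Calr* at 1049 CPM with 0.769 and *Canx* at 1054 CPM with 0.795. *Trib3* at 0.397 CPM was the lowest PBS value in the same library, with a gap of 0.831 from 14 reads. PBS library 388_4 stood high for *Hspe1* at 35.6 CPM, with a gap of 0.765. GA library 394_2 stood high for the mean log2 CPM of all 34 tested genes at 6.65, with a gap of 0.761. In 388_5 the sum of microglia markers was the highest of the 10 libraries and the scaling factor (TMM) of 0.954 the lowest. What sets this library apart was not tested.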

How the results depend on the processing

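In the 18 alternative settings of tool, scaling, filter and libraries, 0 of the 35 genes were called, and 15 of 34 kept their sign in all of them. DESeq2 called 2 genes of all (*Dcstamp* and *Gm1070*). Leaving out single libraries gave 0 to 1 called gene (*Gm15920* without 394_1), and 1 to 5 of the 34 at an unadjusted *P* under 0.05. These were 1 without 400_1 (4.04% of all tested genes), 2 without 388_4 (4.73%), 2 without 400_2 (4.27%) and 5 without 388_5 (7.72%). The 5 were *Calr*, *Canx*, *Creld2*, *Hsp90b1* and *Hyou1*. Prefix 394 alone gave 1 (*Hsp90b1*), against 3.24% of all tested genes, and prefix 400 alone 2 (*Bag3*, *Creld2*), against 6.47%.

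The sign turned with limma-voom for *Hspa1b* (0.0077), *Dnajb9* (0.0029) and *Atf6* (0.0054), and with no filter for *Dnajb9* (0.0016) and *Atf6* (0.0059). Prefix 394 alone turned *Hspa1b* (0.0074), *Hspa8* (0.078), *Bag3* (0.016), *Hsf1* (0.060), *Pdia6* (0.047), *Dnajc3* (-0.0145), *Xbp1* (0.053), *Ddit3* (-0.0053), *Ern1* (-0.12) and *Eif2ak3* (0.022). Prefix 400 alone turned *Hspa1a* (-1.01), *Hsp90ab1* (-0.018), *Dnajb9* (0.023), *Sdf2l1* (-0.020) and *Atf6* (0.017). With prefix 394 alone the median of the heat shock genes was 0.0074 and the difference in their mean 0.09 after the scaling was recomputed over those GA and the PBS libraries. With the scaling of all libraries and without *Hspa1a* and *Hspa1b*, the mean of prefix 394 was below that of PBS. The causes were not tested.

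When single libraries were left out, 14 genes changed sign, with log2 fold changes of -0.75 to 0.60 for *Hspa1a*, -1.48 to 0.10 for *Hspa1b*, -0.012 to 0.097 for *Hsp90ab1*, -0.0037 to 0.13 for *Hspd1*, -0.17 to 0.021 for *Hspe1*, -0.13 to 0.071 for *Dnajb1*, -0.065 to 0.013 for *Hsf1*, -0.047 to 0.015 for *Pdia6*, -0.063 to 0.071 for *Dnajb9*, -0.0098 to 0.058 for *Dnajc3*, -0.0063 to 0.093 for *Sdf2l1*, -0.053 to 0.039 for *Atf6*, -0.060 to 0.011 for *Eif2ak3* and -0.084 to 0.25 for *Trib3*. The mean of the heat shock genes differed by -0.21 to -0.0077 and kept its sign.

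No paired analysis was possible because the title numbers 1 and 2 occur under both GA prefixes and the labels give no pairing. *Hspb1* had too few reads to test. *Hspa1a*, *Hspa1b* and *Trib3* had few reads and wide intervals, and the part of depth in these was not tested.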
